A study of Mus musculus with 48 samples.

Results

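Integrin subunit mRNAs were followed in cultured mouse lung cells, as 10 genes that encode 7 alpha subunits (Itga1, Itga2, Itga3, Itga5, Itga6, Itga8 and Itgav) and 3 beta subunits (Itgb1, Itgb4 and Itgb6). They were picked by gene symbol, as 10 of the 20738 genes the array annotation names. Each gene was read from 1 probe, the one with the highest mean over all 48 arrays. Cultures of 2 kinds from C57Bl/6J mice were compared, AECII (type II cells of the alveolar epithelium) and PASMC (smooth muscle cells of the pulmonary artery), each in 3 conditions with 8 single-colour arrays per condition. Cells labelled 18mg received for 24 h a 15% extract of e-cigarette vapour (ECVE) whose liquid contained 18 mg/ml nicotine, and those labelled 0mg received an extract whose liquid contained 0 mg/ml. Control cells (Ctrl) carry the treatment label room air, the exposed ones the label smoke. AECII were plated in medium with 10% fetal bovine serum and exposed 24 h after isolation, without passage. PASMC were isolated with iron particles and grown in medium with 15% serum to passage 1. According to the series' design text the cells came from 8 mice, and the labels do not tie an array to a mouse. The tests below treat all arrays as separate samples, so p-values measure the spread between these arrays. PASMC arrays of different conditions resembled each other in sets, however. With group means subtracted, over the 7130 tested genes whose mean in PASMC was above 7 (a level chosen after the values were seen), 7 pairs of PASMC arrays had r above 0.8, each pair from 2 conditions, and the highest r was 0.919. They linked 18 mg replicate 5, 0 mg replicate 5 and control replicate 2, then 18 mg replicate 6, 0 mg replicate 4 and control replicate 3, and lastly 18 mg replicate 3 and 0 mg replicate 3. The highest r between 2 PASMC arrays of 1 condition was 0.51, and in AECII the highest r was 0.669 between conditions and 0.338 within 1. Over all 14766 genes without a missing value the highest r between conditions was 0.665 in PASMC and 0.315 in AECII. The 24 PASMC arrays may therefore hold fewer independent cultures than arrays, and the spread test below, which pools the 3 conditions, gives p-values that are too small where arrays share a source.

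Integrins are receptors that join the matrix outside a cell to its actin or keratin skeleton. Each is a pair of 1 alpha and 1 beta subunit, and the alpha subunit largely sets the ligand: collagens for the partners Itga1 and Itga2, laminins for Itga3 and Itga6, and proteins with an arginine-glycine-aspartate (RGD) motif for Itga5, Itga8 and Itgav. Itgb1 pairs with many alpha subunits, Itgb4 only with Itga6 in hemidesmosomes, and Itgb6 only with Itgav, to form an epithelial receptor known for releasing active TGF-beta from its latent complex in the lung.

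Values are the deposited log2 intensities, normalised so that every array has the same distribution, and 1 unit is a 2-fold difference. The median of all array features is 2.97 to 2.98 and the upper quartile starts at 5.78, so a value near 2 to 3 is at the dim end. Levels of different genes come from different probes and are not set against each other. Over all genes, arrays of 1 AECII group correlated with r of 0.978 to 0.986, and those of 1 PASMC group with r of 0.953 to 0.986.

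Markers of each labelled cell type were present. In control cells, 8 of 10 tested type II cell markers were higher in AECII than in PASMC and 1 was lower, and 11 of 12 general epithelial markers were higher, with keratin Krt8 at 14.75 in AECII and 6.34 in PASMC (means of 8 arrays). All 10 tested smooth muscle markers were lower in AECII, such as calponin Cnn1 with a difference of -4.56. Message of markers of other cell types was also seen, and bulk arrays do not tell which cells made it. Markers of alveolar type I cells (5 of 8, with 1 lower), airway cells (5 of 6) and mesothelium (6 of 6) were higher in AECII, where the club cell product Scgb1a1 averaged 15.73 at control, and all 9 fibroblast markers were lower in AECII. Some PASMC arrays held epithelial message: the surfactant protein gene Sftpc was at least 13.80 in every AECII array and ran between 1.72 and 11.82 in PASMC, and Krt8 was at least 14.55 in AECII and ran between 2.54 and 10.62 in PASMC. Macrophage and leukocyte markers averaged 5.35 to 7.20 per AECII array and 4.77 to 7.80 per PASMC array. In such bulk samples, fewer cells of a type and less RNA per cell cannot be told apart.

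The first comparison asks which subunits separate the epithelial from the muscle cultures. With limma over all genes, 9 of the 10 subunits differed between AECII and PASMC in every condition (Benjamini-Hochberg adjusted p under 0.05). In each condition 5 were higher in AECII (Itga2, Itga3, Itga6, Itgb4 and Itgb6), 4 were lower (Itga1, Itga5, Itga8 and Itgb1), and Itgav did not pass. Over all 14775 tested genes the same rule called 58.3% with the 18 mg extract, 58.7% with the 0 mg extract and 59.2% at control, so differing between these cultures was common. As higher in AECII it called 28%, 27.9% and 27.9%, and as lower in AECII 30.3%, 30.9% and 31.3%, in the same order of conditions. The median difference of the 10 subunits was 0.66, 0.81 and 0.85 in those conditions, against -0.03, -0.04 and -0.04 over all tested genes. The plot of every array by group shows the 10 subunits, and the plot of differences between cell types orders them.

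**Figure D1:**
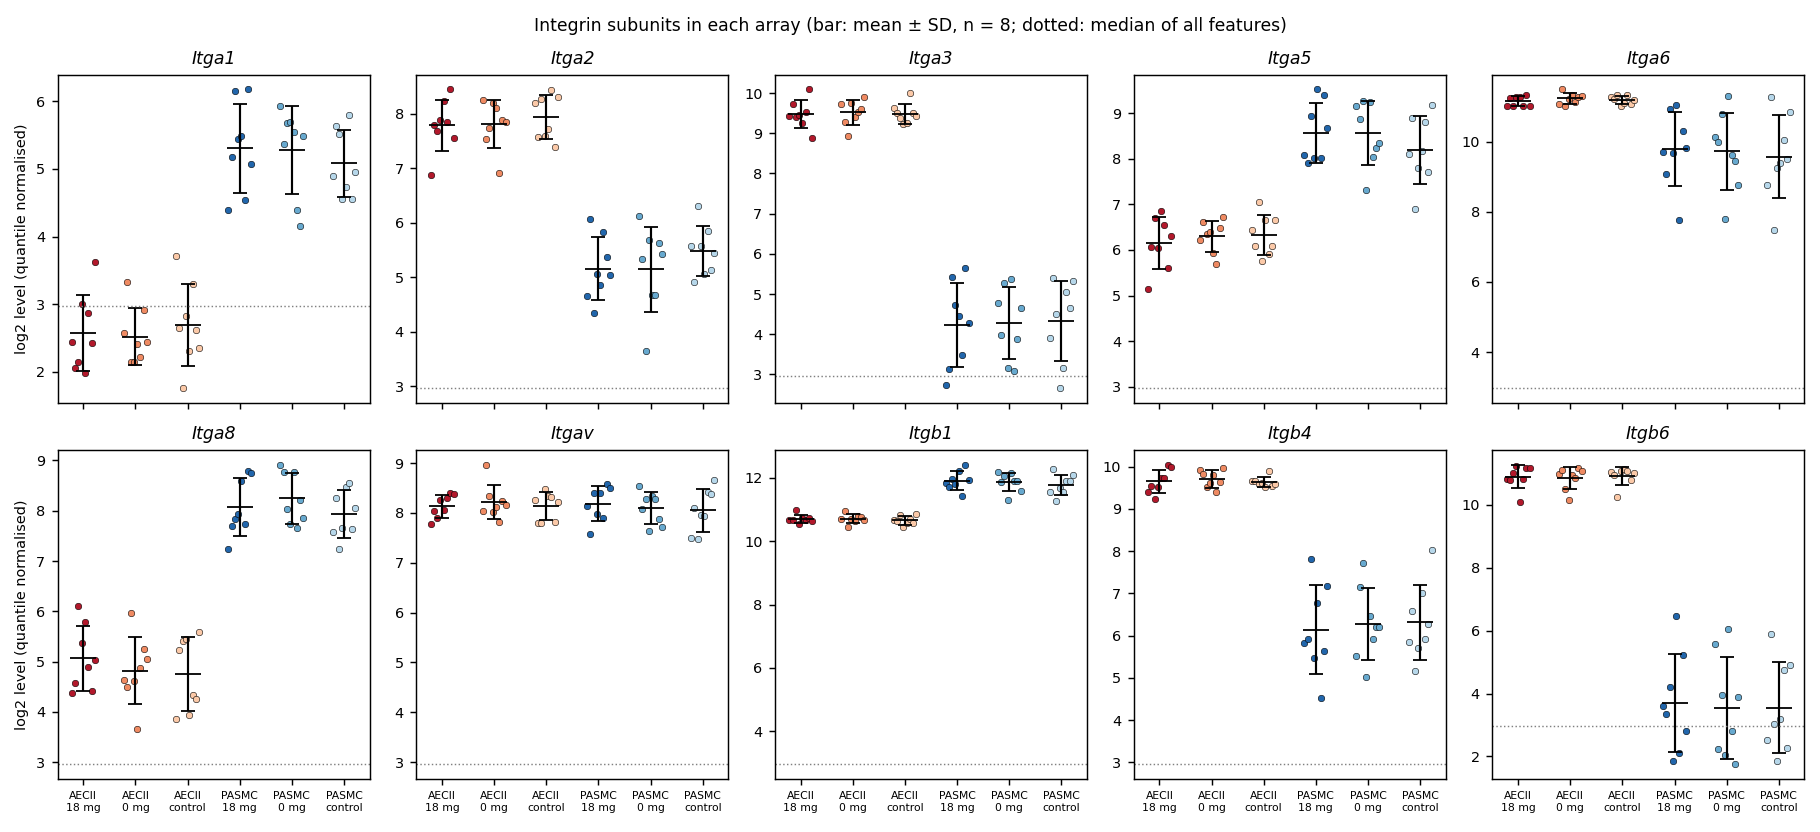
Log2 level of the 10 integrin subunits in each of 48 arrays (y axis, 1 panel and 1 scale per gene) for AECII and PASMC with 18 mg extract, 0 mg extract or control (x axis). Points are arrays, black bars the mean and SD of 8 arrays, and the dotted line the median of all features. Within a cell type the 3 conditions overlap in every panel, while the cell types stand apart except in Itgav and, in part, Itga5 and Itga6.

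**Figure D2:**
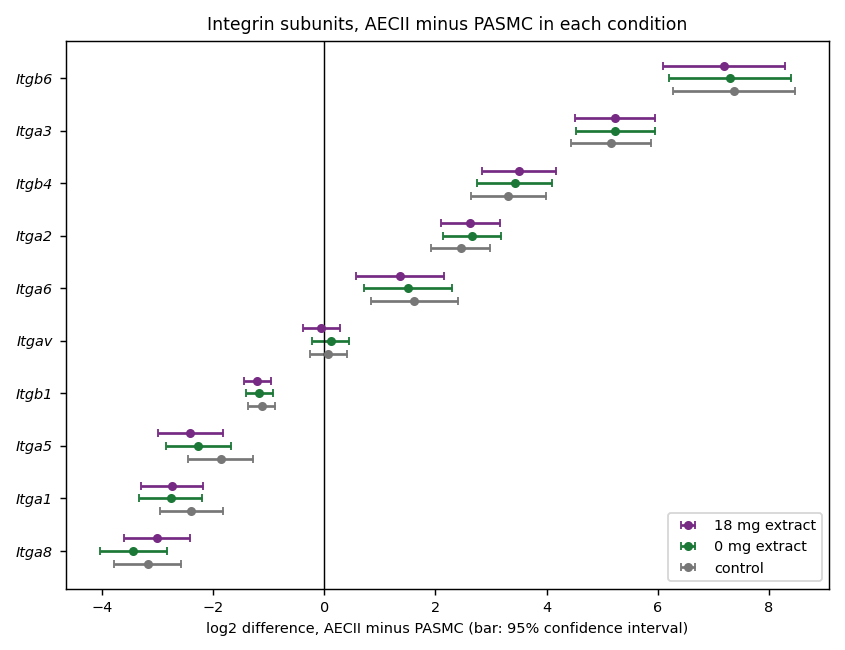
Log2 difference AECII minus PASMC (x axis) for each subunit (y axis) with the 18 mg extract, the 0 mg extract and at control, with 95% confidence intervals from limma. Itgb6 stands highest at 7.20 to 7.37 and Itga8 lowest at -3.43 to -3.01, and the intervals of Itgav cross 0.

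Among the collagen receptors, the alpha subunits Itga1 and Itga2 lay on opposite sides. Itga1, which prefers basement membrane collagen and is known from smooth muscle, had 1.99, 2.43 and 3.63 (lowest, median and highest) in AECII with the 18 mg extract, 2.14, 2.43 and 3.33 with the 0 mg extract and 1.76, 2.63 and 3.71 at control. In PASMC the same values were 4.40, 5.31 and 6.18 with the 18 mg extract, 4.16, 5.52 and 5.93 with the 0 mg extract and 4.55, 4.93 and 5.80 at control. No AECII array reached the lowest PASMC array, and 16 of 24 AECII arrays lay at or below 2.73, the level under which a gene's mean was left untested, so the size of the gap depends on the dim end of the scale. Itga1 was lower in AECII by -2.74, -2.76 and -2.39 (SE 0.28 each) with the 18 mg extract, with the 0 mg extract and at control (limma adjusted p 9.92e-12, 8.18e-12 and 4.14e-10). A second Itga1 probe hardly followed the first (r = 0.11 over 48 arrays), with means of 3.66, 2.93 and 3.09 in AECII and 3.33, 3.52 and 3.32 in PASMC in the same order of conditions. With the mean of both probes the differences shrank to -1.21, -1.67 and -1.31 and remained called. The second probe was not tested alone, and with the 18 mg extract its mean was higher in AECII.

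Itga2, the receptor subunit for fibrillar collagen known from epithelia and platelets, was higher in AECII. It had 6.88, 7.82 and 8.45 (lowest, median and highest) in AECII with the 18 mg extract, against 4.35, 5.05 and 6.07 in PASMC. At control the values were 7.39, 7.96 and 8.43 in AECII, against 4.91, 5.51 and 6.30 in PASMC. The groups did not overlap in any condition, and the differences were 2.63, 2.66 and 2.46 (SE 0.26) with the 18 mg extract, the 0 mg extract and at control.

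All 3 laminin-binding subunits were higher in AECII. Itga3, the laminin receptor subunit that partners Itgb1 in epithelia, had 8.87, 9.45 and 10.09 (lowest, median and highest) in AECII with the 18 mg extract, 8.94, 9.57 and 9.91 with the 0 mg extract and 9.22, 9.46 and 10.00 at control. In PASMC it had 2.75, 4.37 and 5.64 with the 18 mg extract, 3.09, 4.32 and 5.38 with the 0 mg extract and 2.66, 4.57 and 5.39 at control. The lowest AECII array was thus more than 3 log2 units above the highest PASMC array. The differences of 5.23, 5.24 and 5.16 (SE 0.36) had limma adjusted p of 2.42e-17, 2.38e-17 and 3.96e-17.

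Itga6, the laminin receptor subunit that pairs with Itgb1 or Itgb4, was nearly uniform in AECII and very uneven in PASMC. In AECII it ran between 11.01 and 11.34 with the 18 mg extract, between 11.04 and 11.50 with the 0 mg extract and between 11.04 and 11.33 at control. The 8 PASMC arrays with the 18 mg extract had 9.72, 9.07, 10.95, 9.67, 11.04, 7.77, 10.30 and 9.82, those with the 0 mg extract 10.15, 10.00, 10.79, 7.81, 11.30, 9.62, 9.45 and 8.77, and the control arrays 8.78, 11.27, 7.48, 9.26, 9.40, 10.05, 9.52 and 10.85 (replicates 1 to 8). Every PASMC condition thus held 1 array inside the AECII range and 1 array below 8, and the groups overlapped. The differences of 1.37, 1.51 and 1.62 (SE 0.39) still passed the test, with limma adjusted p of 0.00238, 0.000865 and 0.000367 for the 18 mg extract, the 0 mg extract and control. Itgb4, the hemidesmosome partner of Itga6, had medians of 9.63, 9.71 and 9.60 in AECII and of 5.86, 6.20 and 6.09 in PASMC in the same order. No group overlapped, since the lowest AECII array had 9.24 and the highest PASMC array 8.03, and the differences were 3.51, 3.43 and 3.32 (SE 0.33).

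Of the RGD-binding subunits, Itgb6 was higher in AECII, Itga5 and Itga8 were lower, and Itgav did not differ beyond its error. Itgb6 had 10.10, 10.93 and 11.25 (lowest, median and highest) in AECII with the 18 mg extract, 10.14, 10.97 and 11.18 with the 0 mg extract and 10.24, 11.02 and 11.14 at control. In PASMC the arrays with the 18 mg extract had 3.61, 3.34, 4.20, 1.85, 6.46, 2.10, 5.24 and 2.81, those with the 0 mg extract 5.57, 2.25, 3.96, 2.05, 6.04, 2.82, 1.77 and 3.90, and the control arrays 2.53, 5.90, 3.03, 1.84, 3.18, 4.74, 2.27 and 4.90 (replicates 1 to 8). All AECII arrays were far above all PASMC arrays, and 8 of the 24 PASMC arrays were at or below 2.73. The differences of 7.20, 7.31 and 7.37 (SE 0.54) were the largest of the 10 subunits by the probe used, with limma adjusted p of 9.74e-16, 5.97e-16 and 4.60e-16. A second Itgb6 probe followed the first (r = 0.968 over 48 arrays), at 6.98, 6.96 and 7.04 in AECII and 2.29, 2.20 and 2.45 in PASMC (means in the same order), a smaller gap than that of Itga3. The size of the Itgb6 difference and its rank thus depend on the probe and on the dim end of the scale in PASMC.

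Itgav, the alpha subunit that Itgb6 needs, had overlapping levels in the cell types. It had 7.77, 8.16 and 8.39 (lowest, median and highest) in AECII with the 18 mg extract, 7.82, 8.14 and 8.96 with the 0 mg extract and 7.79, 8.24 and 8.49 at control. In PASMC it had 7.57, 8.28 and 8.58 with the 18 mg extract, 7.63, 8.18 and 8.55 with the 0 mg extract and 7.47, 8.02 and 8.66 at control. The groups overlapped throughout, and the 95% intervals of the difference were -0.38 to 0.28, -0.21 to 0.45 and -0.25 to 0.41 (limma adjusted p 0.818, 0.566 and 0.708). By the probe used, an AECII to PASMC difference in Itgav above about 0.45 in size was thus outside all 3 intervals. A second Itgav probe followed the first only in part (r = 0.612 over 48 arrays). It had means of 7.28, 7.42 and 7.51 in AECII and 7.34, 7.29 and 7.17 in PASMC (18 mg extract, 0 mg extract and control). Its SDs were 0.17, 0.47 and 0.12 in AECII and 0.64, 0.58 and 0.52 in PASMC. With the mean of both probes Itgav did not pass either. The 2 subunits of the Itgav and Itgb6 receptor therefore had unlike patterns, with Itgb6 on the AECII side and Itgav in both.

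Itga8, the nephronectin-binding subunit known from contractile mesenchymal cells, had medians of 4.96, 4.75 and 4.78 in AECII and of 7.89, 8.12 and 7.85 in PASMC for the 18 mg extract, the 0 mg extract and control. The highest AECII array had 6.10 and the lowest PASMC array 7.23, so no groups overlapped. The differences were -3.01, -3.43 and -3.17 (SE 0.30), with limma adjusted p of 3.37e-12, 6.58e-14 and 6.83e-13. Itga5, the fibronectin receptor subunit, had medians of 6.19, 6.37 and 6.26 in AECII and of 8.38, 8.61 and 8.14 in PASMC. Only the control groups overlapped, by 1 PASMC array at 6.91 below the highest AECII array at 7.06, and the differences were -2.41, -2.26 and -1.86 (SE 0.29).

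Itgb1, the beta subunit common to most of these receptors, was bright in both cell types and lower in AECII. It had 10.55, 10.68 and 10.98 (lowest, median and highest) in AECII with the 18 mg extract, 10.44, 10.70 and 10.96 with the 0 mg extract and 10.44, 10.66 and 10.86 at control. In PASMC it had 11.44, 11.88 and 12.41 with the 18 mg extract, 11.31, 11.90 and 12.20 with the 0 mg extract and 11.26, 11.80 and 12.28 at control. No groups overlapped, although the differences of -1.21, -1.17 and -1.12 (SE 0.12) were the smallest of the 9 that passed by the probe used (limma adjusted p 5.38e-12, 1.50e-11 and 4.36e-11). A second Itgb1 probe ran with the first at r = 0.946 over 48 arrays. It had means of 8.41, 8.35 and 8.48 in AECII and 10.12, 10.10 and 10.12 in PASMC (18 mg extract, 0 mg extract and control). That gap was wider than the one of Itga6, so the size of the Itgb1 difference and its rank depend on the probe. In all, groups did not overlap for 8 of 10 subunits with the 18 mg extract, 8 with the 0 mg extract and 7 at control, where the same was true of 27.3%, 26.7% and 28% of all 14775 tested genes.

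The start regions of 3 subunits are shown because these genes stand at the ends of the cell-type contrast, Itgb6 and Itga3 on the AECII side and Itga8 on the PASMC side. They were chosen after their values were seen. Sequences are RefSeq's for GRCm38.p6, 250 bases before to 50 after the start, 5′ to 3′, and all 3 genes lie on the minus strand. Capitals mark GGGCGG, the GC box core bound by Sp-family factors, searched on both strands.
Itgb6, chr2:60722554-60722853: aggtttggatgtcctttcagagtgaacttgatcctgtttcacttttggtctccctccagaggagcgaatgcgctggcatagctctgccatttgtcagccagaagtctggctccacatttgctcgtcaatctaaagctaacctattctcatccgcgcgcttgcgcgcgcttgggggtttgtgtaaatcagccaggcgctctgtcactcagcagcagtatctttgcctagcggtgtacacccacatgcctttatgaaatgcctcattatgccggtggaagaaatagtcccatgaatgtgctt
Itga3, chr11:95076665-95076964: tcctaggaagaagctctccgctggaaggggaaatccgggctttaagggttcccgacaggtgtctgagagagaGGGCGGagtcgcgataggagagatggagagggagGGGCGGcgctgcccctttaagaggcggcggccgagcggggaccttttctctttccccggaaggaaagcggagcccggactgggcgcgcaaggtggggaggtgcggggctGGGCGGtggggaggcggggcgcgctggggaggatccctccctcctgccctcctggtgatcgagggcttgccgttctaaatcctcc
Itga8, chr2:12301895-12302194: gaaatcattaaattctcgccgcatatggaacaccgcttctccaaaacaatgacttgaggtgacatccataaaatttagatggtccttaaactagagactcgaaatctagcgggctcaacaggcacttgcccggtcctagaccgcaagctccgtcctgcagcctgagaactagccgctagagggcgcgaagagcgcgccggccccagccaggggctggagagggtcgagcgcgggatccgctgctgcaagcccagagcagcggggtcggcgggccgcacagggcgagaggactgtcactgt
The Itga3 window held 3 GC boxes, at -178, -144 and -35 from the start, and those of Itgb6 and Itga8 held none. Promoters were found for 8 of the 10 genes (10 windows, since Itga3 and Itgb6 have a second start). GGGCGG was in 6 of the 10, against 35.7% of all 32851 promoters of that length. The AP-1 motif TGANTCA was in 1 (the second Itga3 start, against 7.81% of all), the TEAD motif GGAATG in 1 (Itgb1, against 14.7%), the grainyhead motif AACCGGTT in 0 (against 0.146%), and the CArG box of serum response factor in 1 (the second Itgb6 start, against 1.63%). None of these matches overlapped another, and they describe the letters of the windows only.

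In the genome the 10 genes lie on 5 chromosomes, 4 of them on chromosome 2. On GRCm38.p6, Itga1 (13, 114958079 to 115101964) and Itga2 (13, 114833081 to 114932100) share chromosome 13 while Itga1 was lower and Itga2 higher in AECII. Itga3 lies at 95044475 to 95076844 and Itgb4 at 115974725 to 116008412 of chromosome 11. On chromosome 2 lie Itga8 (12106632 to 12301985), Itgb6 (60598292 to 60722603), Itga6 (71786886 to 71858427) and Itgav (83722303 to 83806917). Itga5 is on chromosome 15 (103344286 to 103366791) and Itgb1 on chromosome 8 (128685654 to 128733579).

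The other genes of integrin adhesion were taken as lists and compared at control. Of 7 tested further integrin subunits, 5 were lower in AECII, among them the fibrillar collagen receptor subunit Itga11 (-4.13, SE 0.35) and the fibronectin and vascular cell adhesion molecule receptor subunit Itga4 (-2.83, SE 0.54), and 1 was higher, Itga9 (1.86, SE 0.23), a subunit that binds tenascin. Their median was -1.35, beside -0.04 over all tested genes. Of 5 tested leukocyte and platelet subunits, 2 were higher in AECII, Itgam (1.08, SE 0.29) and Itgax (2.15, SE 0.76), both known from macrophages, whose markers are given above. With the 18 mg extract 2 of the 5 were called as well (Itgam 0.73, Itgax 1.84), and with the 0 mg extract 0 were (Itgam 0.66, Itgax 1.40, limma adjusted p 0.0523 and 0.112). Their part in the integrin results was not tested.

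Among the ligands of laminin receptors, the 2 measured chains of the epithelial laminin, Lamb3 (8.31, SE 0.65) and Lama3 (4.40, SE 0.32), were higher in AECII, as were Itga3, Itga6 and Itgb4 above. The hemidesmosome collagen Col17a1 (-0.60, SE 0.25) and the linker Plec (-0.53, SE 0.13) were lower in AECII at control, where Col17a1 averaged 2.57 in AECII and 3.17 in PASMC and was dim in both. With the 18 mg and the 0 mg extract Col17a1 did not pass, at -0.31 and -0.21 (limma adjusted p 0.301 and 0.487). In total 3 of 6 tested hemidesmosome genes were higher and 2 lower. Of 14 other laminin and basement membrane genes 11 were lower in AECII, with Lama2 at -3.59 (SE 0.28) and Nid1 at -3.38 (SE 0.15), and only Lama5 was higher at 2.69 (SE 0.12).

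Of 17 RGD ligands and latent TGF-beta genes 12 were lower in AECII, led by periostin Postn (-5.97, SE 0.49) and osteopontin Spp1 (-5.86, SE 0.37). The 2 that were higher were Tgfb2 (2.30, SE 0.36), a TGF-beta isoform, and Ccn1 (0.42, SE 0.15), a matricellular protein. Of 7 tested collagen genes, fibrillar ones and chains of the beaded-filament collagen VI, 5 were lower, such as the fibrillar Col5a1 (-3.56, SE 0.19) and Col3a1 (-3.40, SE 0.64), and the collagen VI chain Col6a2 was higher (1.14, SE 0.26). Of 30 adhesion complex genes 13 were lower, led by the Rap effector Apbb1ip (-3.37, SE 0.20) and the focal adhesion adaptor Lims2 (-2.75, SE 0.17), and 5 were higher, led by kindlin Fermt1 (2.07, SE 0.31) and the kinase Ptk2b (1.18, SE 0.17). Of 9 tetraspanins and other integrin partners 3 were higher, with Cd9 at 1.65 (SE 0.13) and Cd82 at 0.81 (SE 0.12), and 4 were lower, with Cd81 at -1.09 (SE 0.10) and Bsg at -0.75 (SE 0.09). The medians were -1.29 for the RGD list, -2.34 for the collagens and -0.12 for both the adhesion and the tetraspanin list. At control, where 59.2% of all tested genes were called, these counts describe the cultures and are no test of the lists.

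No integrin subunit passed the test in any extract comparison, in AECII or in PASMC. The second comparison asked whether the 18 mg or the 0 mg extract moved the subunits, in separate fits of the 24 arrays of a cell type. In AECII, 0 of 9 tested subunits were called in any of the 3 comparisons, where 0% of 14772 tested genes were called (Itga1 was too dim to test). In PASMC, 0 of 10 were called, where 0% of 14767 genes were called with the 0 mg extract against control and with the 18 mg against the 0 mg extract, and 0.0271% with the 18 mg extract against control. No subunit had an unadjusted p under 0.05 in any of these 6 limma comparisons, while 2.36% of genes did in AECII and 4.04% in PASMC with the 18 mg extract against control, and 3.37% and 2.82% with the 0 mg extract. The groups of the 2 conditions overlapped for every tested subunit in all 6 comparisons. Over all tested genes the groups did not overlap for 0.00677% in AECII with either extract against control, 0.0135% in AECII between the extracts, 0.00677% in PASMC with the 0 mg extract against control, 0.0474% with the 18 mg extract against control and 0% between the extracts.

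In AECII the subunits' differences ran between -0.18 and 0.31 with the 18 mg extract against control, and between -0.13 and 0.08 with the 0 mg extract. The 2 smallest p-values with the 18 mg extract belonged to Itga8 (0.31, 95% interval -0.36 to 0.98) and Itga5 (-0.18, interval -0.64 to 0.29). With the 0 mg extract they belonged to Itgb4 (0.07, interval -0.15 to 0.30) and Itgb1 (0.05, interval -0.11 to 0.21). Between the extracts, 18 mg minus 0 mg, Itga6 had -0.08 (interval -0.24 to 0.07) and Itga8 had 0.25 (interval -0.42 to 0.92). The widest interval of a subunit in AECII reached 0.672 to either side, and a change of 1 log2 unit or more lay outside every AECII interval.

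PASMC left wider intervals. The differences ran between -0.32 and 0.37 with the 18 mg extract against control and between -0.33 and 0.36 with the 0 mg extract. With the 18 mg extract the smallest p-values were those of Itga5, at 8.57 ± 0.66 against 8.20 ± 0.74 at control (SD, n = 8; difference 0.37, interval -0.32 to 1.07), and of Itga2 (-0.32, interval -0.94 to 0.29). With the 0 mg extract they were those of Itga8, at 8.24 ± 0.51 against 7.93 ± 0.47 at control (SD, n = 8; difference 0.31, interval -0.20 to 0.83), and of Itga2 (-0.33, interval -0.95 to 0.29). Between the extracts, Itga8 had -0.17 (interval -0.69 to 0.35) and Itgav 0.09 (interval -0.28 to 0.47). The widest interval in PASMC reached 1.52 to either side, so a change of about 1 log2 unit in the most variable subunits lay inside them. These fits did not use the resemblance between PASMC arrays of different conditions, which the labels do not explain. Where such arrays share a source, unpaired fits give intervals that are too wide and p-values that are too large. The lack of calls in PASMC is thus not read as lack of an effect. The same holds for the differences of differences below. All adjusted p-values of the subunits in these comparisons were 0.999 or higher.

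**Figure D3:**
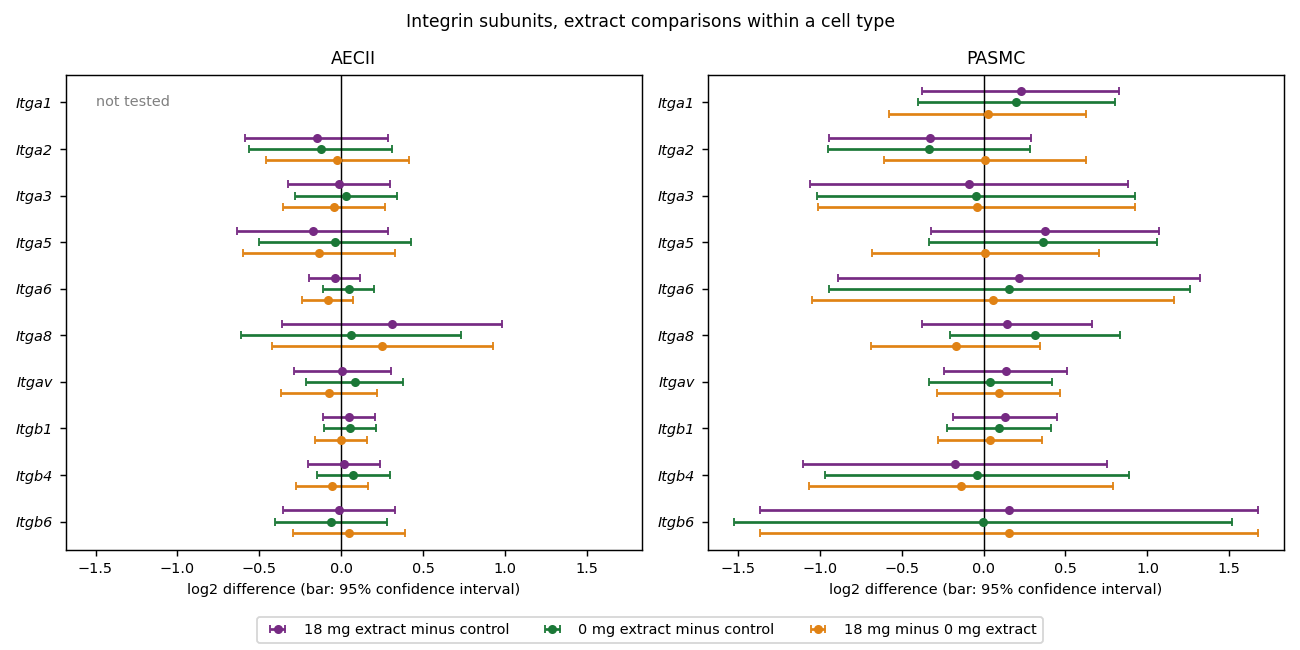
Log2 differences of each subunit (x axis) between conditions within AECII (left) and within PASMC (right), with 95% confidence intervals from limma, for the 18 mg extract minus control, the 0 mg extract minus control and the 18 mg minus the 0 mg extract. All intervals include 0, and those of PASMC, up to 1.52 to either side, are wider than those of AECII, up to 0.672.

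Whether the extract response differed between the cell types was tested as a difference of differences, AECII minus PASMC. None of the 10 subunits was called for the 18 mg or the 0 mg extract against control or for the 18 mg against the 0 mg extract, where 0% of 14775 genes were called in each, and none had an unadjusted p under 0.05 (limma). The smallest p-values were those of Itga5 for the 18 mg extract against control (-0.55, interval -1.38 to 0.28) and for the 0 mg extract against control (-0.40, interval -1.23 to 0.43). Itga1 came next in both, at -0.35 (interval -1.14 to 0.45) and -0.37 (interval -1.16 to 0.43), but it was too dim in AECII to test there, so these values rest on PASMC and say nothing of a response in AECII. For the 18 mg against the 0 mg extract the values were 0.42 for Itga8 (interval -0.42 to 1.26) and -0.17 for Itgav (interval -0.64 to 0.30). None of the genes on the 8 lists of further integrins, ligands and adhesion proteins was called in an extract comparison either.

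What varied among arrays of the same group was a set of subunits in PASMC. Absolute deviations from the group median were compared between the cell types with limma, a test added after the values were seen. Of the 10 subunits, 5 deviated less in AECII than in PASMC (Itga3, Itga6, Itgb1, Itgb4 and Itgb6) and none deviated more, while 5.96% of all 14775 tested genes were called, 5.27% as less and 0.697% as more spread in AECII. Itga6 had a pooled SD of 0.136 in AECII and 1.12 in PASMC (limma adjusted p 0.00123), and Itgb6 one of 0.339 in AECII and 1.54 in PASMC (limma adjusted p 0.0004). The SDs were 0.209 and 0.939 for Itgb4 (limma adjusted p 0.00589), 0.305 and 0.982 for Itga3 (limma adjusted p 0.000934) and 0.137 and 0.308 for Itgb1 (limma adjusted p 0.0421), each with AECII before PASMC. The Itgb1 call was lost when 1 array was left out in 33 of 48 cases. Within 1 condition, 8 arrays of each cell type, 0 of 10 subunits were called, where 0.0744%, 0.0745% and 0.00677% of all genes were called with the 18 mg extract, with the 0 mg extract and at control. The subunits had differences in mean absolute deviation (AECII minus PASMC) of -0.92, -1.09 and -0.97 for Itgb6 and of -0.60, -0.71 and -0.75 for Itga6 (18 mg extract, 0 mg extract and control; limma adjusted p 0.32 or higher for the 5 subunits). The differences over all arrays were -0.99 for Itgb6 and -0.69 for Itga6, so the size was alike and the call rests on pooling the conditions. Of the other 5, Itga5 had SDs of 0.464 in AECII and 0.701 in PASMC, and Itga8 had 0.68 and 0.518, without passing.

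PASMC arrays also differed in their epithelial message. By the mean of 12 general epithelial markers the 24 PASMC arrays fell into 9 arrays at 4.86 to 6.13 and 15 arrays at 3.16 to 3.86, with 3 of the 9 in each condition, while all AECII arrays lay between 10.08 and 10.76. Markers of other cells moved with this division. The mean of 9 fibroblast markers ran between 9.42 and 11.04 in the 9 arrays and between 11.10 and 11.83 in the 15, without overlap. Medians in the 9 and the 15 arrays were 9.87 and 9.29 for smooth muscle markers, 7.06 and 5.46 for macrophage and leukocyte markers, 4.73 and 3.99 for endothelial markers, 7.12 and 5.22 for alveolar type II markers and 5.84 and 5.04 for alveolar type I markers, with ranges that overlapped. The same 9 arrays were the ones with Krt8 above 7. Their median levels were higher than those of the 15 for Itgb6 (5.24 against 2.53), Itga3 (5.32 against 3.89), Itga6 (10.85 against 9.40) and Itgb4 (6.58 against 5.91), all subunits that were higher in AECII. They were also higher for Itga5 (9.17 against 8.04), Itgb1 (12.15 against 11.70), Itga8 (8.55 against 7.73), Itgav (8.41 against 7.95) and Itga1 (5.67 against 4.90), and lower for Itga2 (4.91 against 5.43). Itgb6 (lowest of the 9 at 3.96, highest of the 15 at 3.90) and Itga6 (10.05 and 10.00) did not overlap between the 9 and the 15 arrays. Since the arrays were set apart by measured markers and not by a label, these medians are a description with no test. Neither the medians nor the overlaps were counted over all genes, so they are not read as particular to the subunits.

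**Figure D4:**
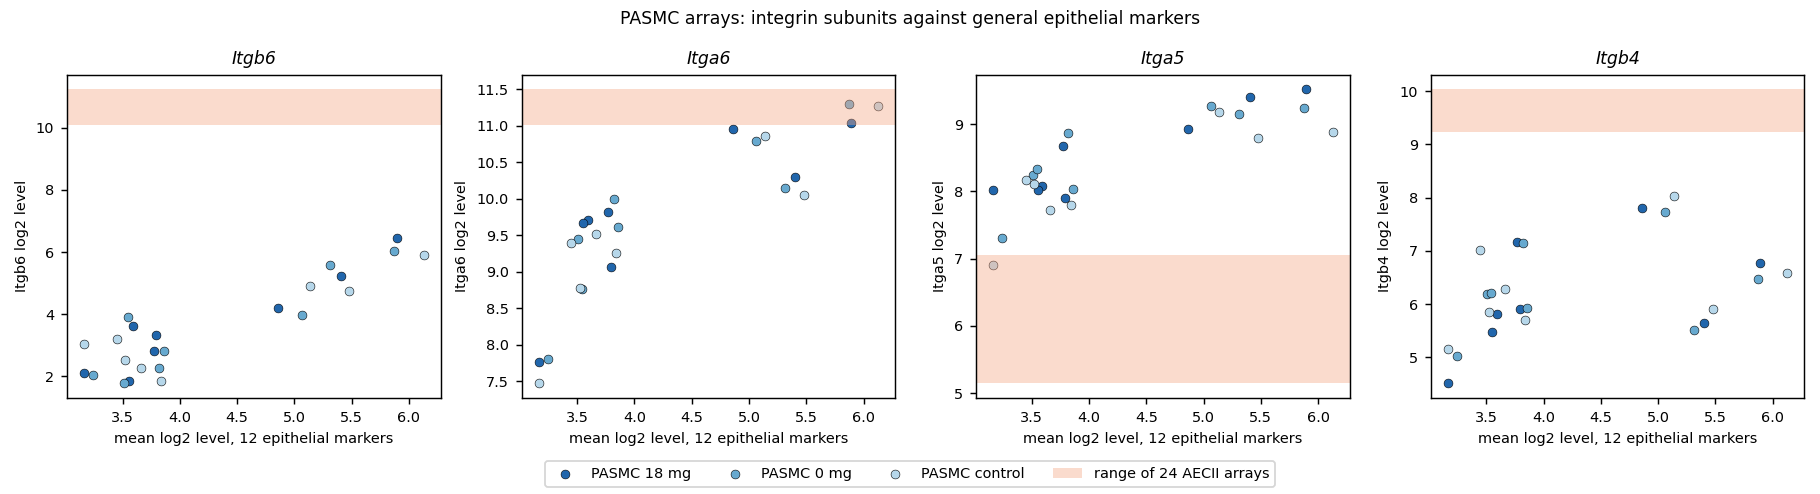
Log2 level of Itgb6, Itga6, Itga5 and Itgb4 (y axis, 1 scale per panel) against the mean of 12 general epithelial markers (x axis, log2) in the 24 PASMC arrays, coloured by condition, with the range of the 24 AECII arrays as a band. The 9 arrays at 4.86 or above, 3 per condition, hold the highest Itgb6 levels but stay far below the AECII band, while Itga6 reaches it in 1 array per condition.

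Without the 9 arrays the spread call was lost for all 5 subunits (0 of 10 called), where 0.162% of 14770 genes were called, so calls were lost throughout. The subunits had limma adjusted p of 0.189 for Itgb6, 0.134 for Itga6, 0.123 for Itgb4, 0.08 for Itga3 and 0.605 for Itgb1. The differences in mean absolute deviation stayed negative on fewer arrays. They were -0.45 for Itga6 (-0.69 with all arrays), -0.38 for Itga3 (-0.57), -0.37 for Itgb4 (-0.53), -0.31 for Itgb6 (-0.99) and -0.06 for Itgb1 (-0.14). The difference between the cell types stayed called for the same 9 subunits in each condition, and at control it was 8.34 for Itgb6, 5.71 for Itga3, 2.31 for Itga6 and 3.63 for Itgb4, against -0.94 for Itgb1 and -1.41 for Itga5. The share of all genes called between the cell types was not counted without the 9 arrays, and was 59.2% at control with them. Extract comparisons called 0 subunits with and without them. Within the 2 sets of arrays, r with the epithelial markers is given as a description with no p, since the arrays resemble each other across conditions (condition means subtracted). Over the 9 arrays r was 0.879 for Itgb6, and 0.859 without the 2 arrays farthest from the marker median. The 9 include the linked set of 18 mg replicate 5, 0 mg replicate 5 and control replicate 2. That set had the highest Itgb6 levels of their conditions (6.46, 6.04 and 5.90). Over the 15, where 8 arrays had Itgb6 at or below 2.73, no r is read for it. Over the 15 arrays r was 0.822 for Itga6 and 0.811 for Itgb1, and 0.645 and 0.680 without the 2 farthest arrays. There the linked set of 18 mg replicate 6, 0 mg replicate 4 and control replicate 3 had the lowest marker means (3.16, 3.24 and 3.17). Leaving out 2 arrays cannot remove a whole linked set, so the distance of these sets from other arrays enters these r. The r of the other subunits ran between -0.48 and 0.58 over the 9 arrays and between -0.43 and 0.63 over the 15. The part of epithelial or any of the other cells in these levels was not tested.

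Subunits that form a pair were then correlated across arrays, with condition means subtracted. Over the 24 AECII arrays 0 of 9 pairs passed by Pearson's r with p adjusted over 9 pairs in a permutation test with 100000 resamples, and r ran between -0.08 and 0.44. The highest r was that of Itgb6 with Itgav (r = 0.44, permutation adjusted p 0.144), which passed by Spearman's rho (0.579, permutation adjusted p 0.0338). Against the mean of the smooth muscle markers in the same 24 arrays, 0 of 10 subunits passed by r or rho, and r ran between -0.43 and 0.40. There Itgb6 had r = 0.393 (rho = 0.55, permutation adjusted p of rho 0.0582) and Itgav r = 0.394 (rho = 0.344). The part of these markers in the pair was not tested. Because of their 2 sets, PASMC arrays were correlated within each set, 18 relations in all, and these r are a description with no p for the reason given above. Over the 15 arrays with fewer epithelial markers, Itgb1 with Itga6 had r = 0.932 (rho = 0.829), Itgb1 with Itgav r = 0.762 (rho = 0.868), and Itga6 with its hemidesmosome partner Itgb4 r = 0.793 (rho = 0.736). Without the 2 arrays farthest from the median of the beta subunit these were 0.873, 0.722 and 0.753. The 15 arrays include the set linked above, 18 mg replicate 6, 0 mg replicate 4 and control replicate 3. Its Itga6 levels were the lowest of their conditions (7.77, 7.81 and 7.48). Leaving out 2 arrays cannot remove that whole set, so its distance from the other arrays enters these r.

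The other pairs had lower or negative r over the 15 arrays. Itgb1 with Itga5 had r = 0.629, which came to 0.18 without the 2 arrays farthest in Itgb1 and so rests on them. Itga2 with Itgb1 had r = -0.646, and -0.52 without 2 arrays. Itga3, Itga8 and Itga1 with Itgb1 had r of 0.08, 0.37 and -0.53, and without 2 arrays they were 0.13, 0.19 and -0.22. Itgav with Itgb6 is not read over these 15 arrays, 8 of which had Itgb6 at or below 2.73. Over the 9 arrays with more epithelial markers the 9 pairs had r between -0.15 and 0.56, where Itgb1 with Itga6 had 0.09, and 0.57 without the 2 arrays farthest in Itgb1.

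**Figure D5:**
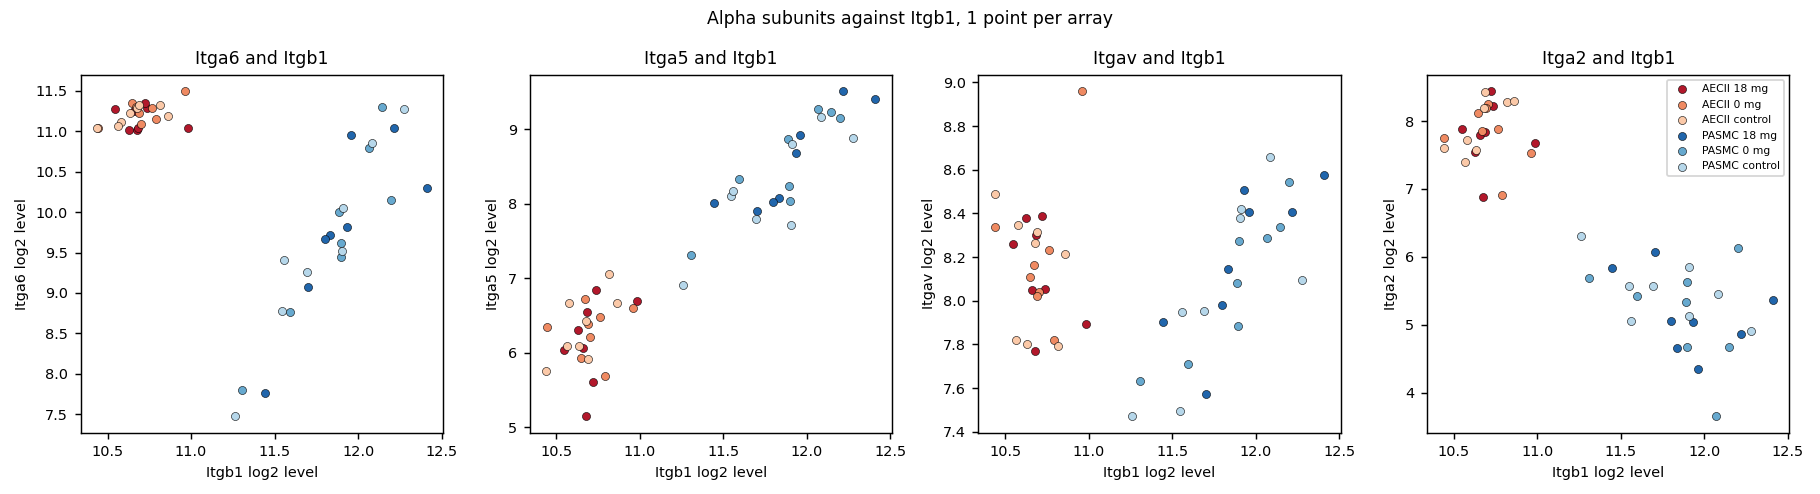
Log2 level of Itga6, Itga5, Itgav and Itga2 (y axes) against that of Itgb1 (x axis) in each of 48 arrays, coloured by cell type and condition. AECII arrays form a tight cloud at Itgb1 levels of 10.44 to 10.98, while PASMC arrays spread between 11.26 and 12.41. Itga6 was higher at higher Itgb1 over the 15 PASMC arrays with fewer epithelial markers (r = 0.932), while r was 0.09 over the other 9. The 15 include a linked set of arrays with the lowest Itga6 levels, whose distance from the others enters that r of 0.932.

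The genes most like 4 of the subunits were named by the Pearson r of group-centred values over all 48 arrays, a description without p in which PASMC carries most of the variance. Nearest to Itgb6 were Mal2 (0.886), Akap5 (0.882) and Sfn (0.878), the last the epithelial protein stratifin. Nearest to Itga6 were Tpd52 (0.950), Otud3 (0.938) and the growth factor Hbegf (0.937). Itga3 was nearest to Plcg2 (0.736), Slc39a4 (0.730) and Tgfb2 (0.724), and Itgb1 to the phosphatase Dusp4 (0.867), Eif3b (0.854) and its own partner Itga6 (0.840). All of these r pool the 2 sets of PASMC arrays, so the distance between the sets enters them. Taken apart, Itgb1 with Itga6 had r of 0.932 over the 15 PASMC arrays and 0.385 over the 24 AECII arrays. Over the 9 PASMC arrays it was 0.09, and 0.57 without the 2 arrays farthest in Itgb1. The 15 arrays still include the linked set with the lowest Itga6 levels, whose distance from the others enters the r of 0.932.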

How the data were processed

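RNA was labelled with Cy3 after amplification with an Agilent low-input kit and hybridised to single-colour arrays, per the labels' protocols. The authors deposited 1 table of log2 intensities, already quantile normalised, as all arrays share one distribution; limma is named in the submitters' processing notes, and background correction is not given in the sources used here. The deposited table has 62976 features, 31465 of them with 1 gene symbol and 31511 with none, and 28 missing values, 0 in the integrin probes. Symbols were updated through RefSeq accessions, and each gene kept its probe of highest mean (14 probes for the 10 subunits, of which 4 have several). Genes above the 30th percentile of mean level (2.73, and 2.67 in AECII and 2.69 in PASMC) were tested with limma 3.58.1 in R 4.3.3, Benjamini-Hochberg adjusted over all tested genes, with a threshold of 0.05: 48 arrays for cell types and interactions, 24 for the extracts. Correlations used scipy 1.17.1, and those of PASMC were computed within 2 sets of arrays seen in the data, without the planned permutation test over all 24. The number of arrays limits the precision.

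All 10 subunits are named. From other lists the text names the 2 called genes with the largest positive and negative difference at control, for the extracts the 2 subunits of smallest p, and for Itgb1 and the 3 most variable subunits the 3 genes most alike. The subunits and lists were chosen with earlier results of these data known. Alternatives were the replicate block, filters, normalisation, fit, weights, probes and left-out arrays. Tests were run on simulated data first.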

Additional observations from a re-analysis of the deposited data

Results flagged for a closer look

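Of 60 checks (10 subunits in 6 groups of 8 arrays), 5 found 1 AECII array far from the other 7 and none found such a PASMC array, where chance alone marks about 1 in 20 groups. Itgb6 was low at 10.10 in AECII replicate 5 with the 18 mg extract, where the next array had 10.80. It was also low at 10.24 in AECII control replicate 3, where the next had 10.79. Itgb1 was high at 10.98 in AECII replicate 3 with the 18 mg extract (next 10.74), Itgav was high at 8.96 in AECII replicate 2 with the 0 mg extract (next 8.34), and Itgb4 was high at 9.89 in AECII control replicate 6 (next 9.66).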

How the results depend on the processing

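The 27 differences between the cell types other than those of Itgav kept their sign and call under all 753 alternatives, with a highest limma adjusted p of 0.0117. How many of all genes kept theirs was not counted. No alternative used a second probe alone. The second Itga1 probe had a higher mean in AECII (3.66) than in PASMC (3.33) with the 18 mg extract. With the 0 mg extract and at control its mean was lower in AECII. Extract comparisons called 0 subunits under every alternative: over 2877 alternative values of 87 differences no call changed, the smallest limma adjusted p was 0.962, and 58 differences changed sign at least once. The sign of Itgav between the cell types was unsettled. Leaving out 1 array gave -0.00465 to 0.165 at control and -0.138 to 0.00529 with the 18 mg extract. Leaving out the PASMC arrays with Krt8 above 7 gave 0.115 with the 18 mg extract, 0.294 with the 0 mg extract and 0.281 at control (limma adjusted p 0.594, 0.142 and 0.162). The highest value of any alternative was 0.338, at control, and the smallest limma adjusted p was 0.0821. Leaving out the 7 AECII arrays with Acta2 above 12 gave -0.063 with the 0 mg extract. That exclusion also turned the 18 mg against 0 mg interaction of Itgav to 0.013. With the mean of all probes Itgb1 in AECII with the 0 mg extract came to -0.037 and the 18 mg interaction of Itga1 to 0.10. The cause was not tested. Subunits called as less spread in AECII numbered 4 to 5 with 1 array left out, 2 without the 11 PASMC arrays with Sftpc above 6, 0 without the 9 with Krt8 above 7 and 0 within each condition alone (8 arrays of each cell type), alternatives chosen after seeing the data. With 1 array left out and without the 11 arrays, the share of all genes called was not counted. Those counts are not read as particular to the subunits. By Spearman's rho, 1 of 9 AECII pairs passed, Itgb6 with Itgav (rho 0.579). As a rule same-numbered replicates did not deviate together (median r 0.041 in AECII and 0.025 in PASMC, highest 0.274 and 0.610). The numbers were therefore not taken as pairs. Over the brighter genes, however, PASMC replicate 5 with 18 mg and with 0 mg extract had r = 0.88, and replicate 3 of each had 0.817. Other linked arrays had unlike numbers, so the replicate block does not follow the linked sets. With the replicate block the differences at control were unchanged (Itgb6 7.37, limma adjusted p 9.42e-15), and the block changed no call.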
